A study of Mus musculus with 12 samples.

Results

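The insulin-like growth factor (IGF) system was described through 10 genes, 2 ligands, 2 receptors and 6 binding proteins, taken from the 56350 genes of the deposited count table by their symbols: Igf1, Igf2, Igf1r, Igf2r, Igfbp2, Igfbp3, Igfbp4, Igfbp5, Igfbp6 and Igfbp7. IGF1 and IGF2 are secreted peptides that act through the receptor tyrosine kinase IGF1R, while IGF2R, also the mannose 6-phosphate receptor, takes up IGF2 for degradation in lysosomes. Most secreted IGF is held by binding proteins that prolong its life and restrict or present it to the receptor, and IGFBP7 binds IGFs only weakly. IGFs are stored in bone matrix and promote osteoblast growth and bone formation, and IGFBP5 is among the binding proteins known from bone.

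The cells were MPC2, a mouse mesenchymal progenitor line that is conditionally immortalized and derives from a single clone. Undifferentiated mesenchymal stem cells (MSCs) were kept at 33 °C. Cells labelled osteocytes were held at 37 °C for 3 weeks in medium with beta-glycerophosphate and ascorbic acid. Both received for 48 hours either DMSO vehicle or 50 µM FG-4592 (Roxadustat), an inhibitor of the prolyl hydroxylases that mark HIF for degradation, giving 4 conditions with 3 RNAseq libraries each. Temperature, medium and time in culture all differ between MSCs and osteocytes and cannot be told apart in that comparison. The labels do not say that the 3 libraries of a condition came from separate cultures, so p-values measure the spread between these libraries, which may be technical.

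Library totals lay between 52829185 and 68108470 counts. FG-4592 exposure was visible in its known targets, since 5 of 6 HIF target genes in MSCs and 6 of 6 in osteocytes rose past both cutoffs (edgeR FDR under 0.05, absolute log2 fold change above 1), with a summed level in MSCs of 715 to 737 CPM under vehicle and 7485 to 7615 CPM under FG-4592. Here CPM is the count scaled to a common library size with TMM factors. Of 13 osteoblast and osteocyte markers, 10 were tested and 4 rose past both cutoffs in vehicle-treated osteocytes over MSCs (Bglap, Bglap2, Dmp1 and Phex). By the FDR alone Runx2 (0.56) and Sp7 (0.45) were higher there and Ibsp (-0.74, FDR 0.00289) and Alpl (-0.33, FDR 0.0140) lower. Sost, Mepe and Pdpn had at most 3 counts in every library, so osteocyte identity was not visible in those genes. With FG-4592, 4 of the 10 were called lower and 0 higher in MSCs, among them Ibsp (log2 fold change -4.12), and in osteocytes 5 were called lower, among them Dmp1 (-2.44) and Phex (-4.35), and 1 higher, Fgf23 (5.81, from 0.0251 to 1.61 CPM on average). The summed level of that list was 3005 to 3362 CPM in vehicle-treated MSCs and 2919 to 3403 CPM in vehicle-treated osteocytes. Most of it was Col1a1, which averaged 2799 and 2749 CPM (log2 fold change -0.03, FDR 0.840). Changes in the other genes of the list therefore hardly show in the sum. Adipocyte markers also rose with differentiation, 3 of 5 past both cutoffs, with sums in MSCs of 304 to 326 CPM under vehicle and 208 to 222 under FG-4592, and in osteocytes of 2020 to 2633 under vehicle and 2227 to 2637 under FG-4592. None of these adipocyte genes was at or under the floor of 3 counts. Of 6 mesenchymal markers tested, 1 rose and 1 fell with differentiation under vehicle. Among 3 cartilage markers tested, Col2a1 (6.32) and Comp (2.74) rose past both cutoffs with differentiation under vehicle while Sox9 fell by 0.70, and 2 rose with FG-4592 in osteocytes, from a sum of 113 to 135 CPM to 375 to 455 CPM. The summed level of 3 proliferation genes in MSCs was 576 to 590 CPM under vehicle and 366 to 442 under FG-4592. In osteocytes it was 304 to 364 CPM under vehicle and 90.8 to 157 under FG-4592. Blood and vessel markers summed to at most 0.594 CPM. The part that these shifts play in the values below was not tested, and in bulk RNA fewer cells of a type and less RNA per cell cannot be told apart.

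Of the 10 genes, 9 passed the filter of more than 10 counts in at least 3 libraries, and Igfbp2 did not. A gene was called when its edgeR quasi-likelihood FDR was under 0.05 and its absolute log2 fold change above 1. FG-4592 led to 1 call among the 9 in MSCs, where 9.29% of the 16484 genes tested were called, and to 2 in osteocytes, where 10.5% were called. Differentiation led to 4 calls under vehicle, against 15.9% of all genes, and to 4 under FG-4592, against 18.3%. By the FDR alone the counts were 4 in MSCs (38.1% of all genes), 4 in osteocytes (43.8%), 5 between cell types under vehicle (51%) and 5 under FG-4592 (55.8%). Libraries of the groups did not overlap for 5 members tested with FG-4592 in MSCs (50.5% of all genes), 4 in osteocytes (51.8%), 5 between cell types under vehicle (56.9%) and 5 under FG-4592 (64.1%). The 2 comparisons within a treatment and the 2 within a cell type use the same libraries in part. The median log2 fold change of the 9 was -0.16 with FG-4592 in MSCs, beside -0.045 over all genes, and 0.17 in osteocytes, beside 0.0015.

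**Figure D1:**
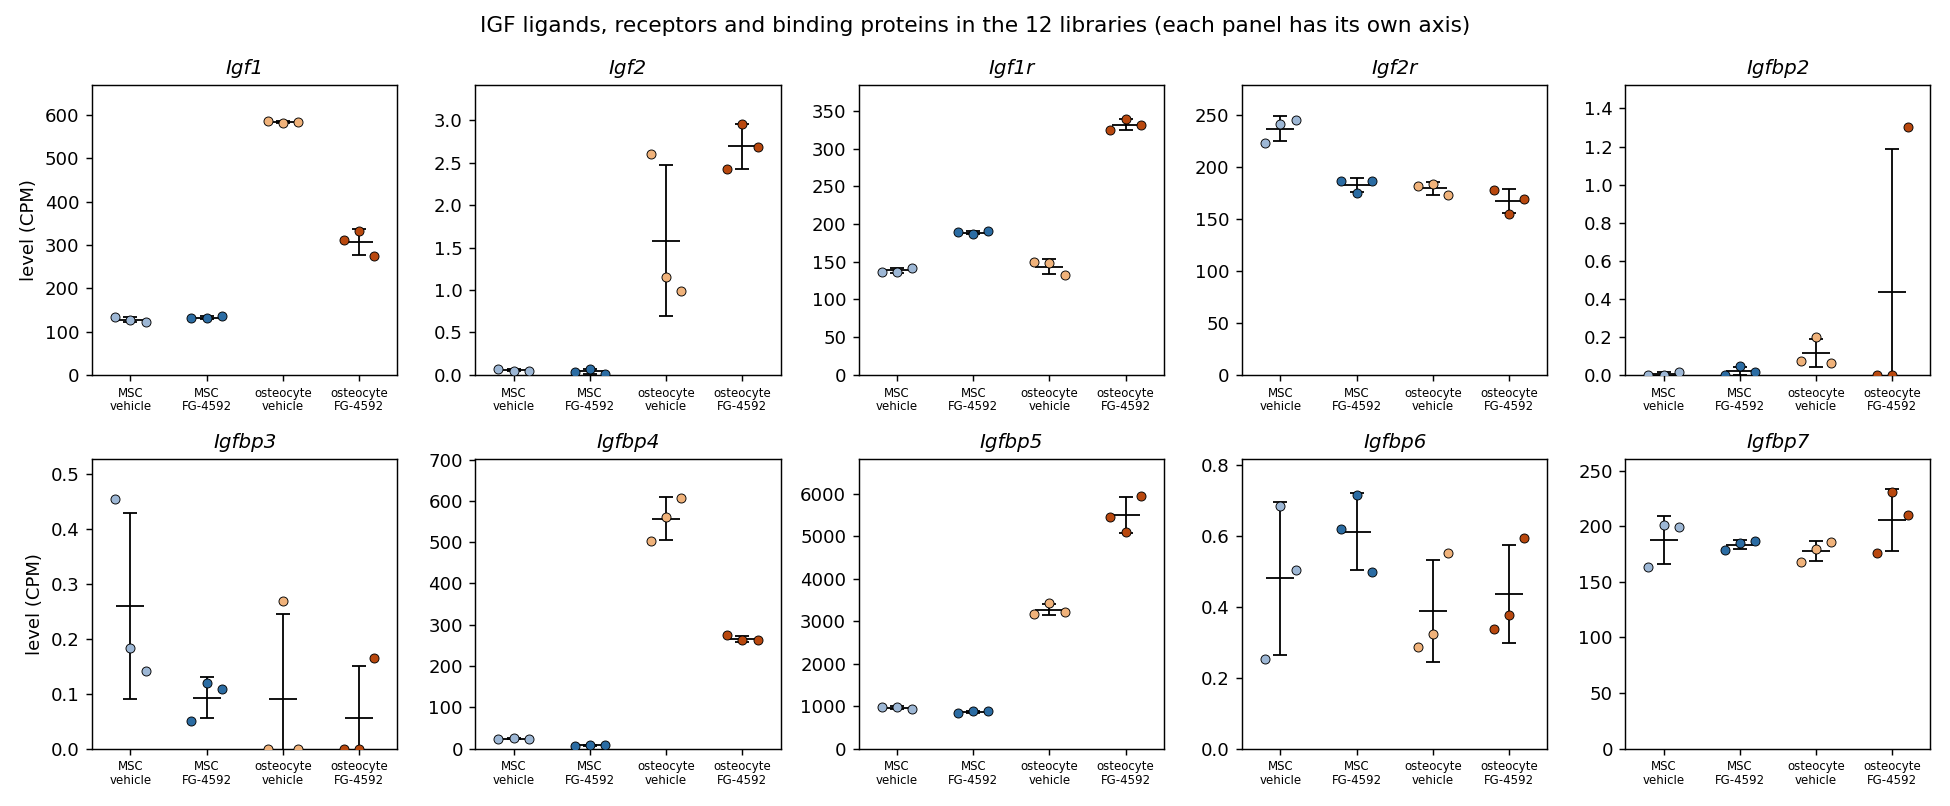
Level in CPM (vertical axis, starting at 0 and set separately in each panel) of the 10 genes in the 4 conditions, with 1 point per library and the mean ± SD of 3 libraries in black. Igf1 and Igfbp4 were highest in vehicle-treated osteocytes and lower with FG-4592 there, Igf1r and Igfbp5 were highest in FG-4592-treated osteocytes, and the single high point of Igfbp2 is 1 library with 79 counts.

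Levels of different genes are comparable only per length, here CPM per kilobase of annotated exon. On that scale Igfbp5 and Igfbp7 were the most abundant of the family in every condition. In vehicle-treated MSCs they stood at 161 ± 4.69 and 155 ± 17.8 CPM per kilobase (SD, n = 3), and their libraries overlapped. Igf2r followed at 25.4 ± 1.30, Igf1 at 12.8 ± 0.540, Igf1r at 8.25 ± 0.164 and Igfbp4 at 5.40 ± 0.343, and none of these overlapped its neighbour in the order. In vehicle-treated osteocytes the order was Igfbp5 at 545 ± 22.2, Igfbp7 at 147 ± 7.42, Igfbp4 at 126 ± 11.7, Igf1 at 58.9 ± 0.163, Igf2r at 19.3 ± 0.627 and Igf1r at 8.56 ± 0.555, again without overlap between neighbours. With FG-4592 in osteocytes Igfbp5 reached 916 ± 72.0 and Igf1r, at 19.8 ± 0.418, passed Igf2r, at 18.0 ± 1.25. Igf2, Igfbp2, Igfbp3 and Igfbp6 stayed under 1 CPM per kilobase in all conditions. By raw counts Igfbp5 ranked between 9 and 123 among all genes in the 12 libraries.

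Igf1 was the abundant ligand, and its level depended on both differentiation and treatment. The gene (ENSMUSG00000020053.18) lies on the plus strand of mm10 at chr10:87858265-87937042. Vehicle-treated MSCs held 133, 127 and 122 CPM and FG-4592-treated MSCs 130, 131 and 136 CPM. Vehicle-treated osteocytes held 586, 582 and 584 CPM and FG-4592-treated osteocytes 313, 333 and 275 CPM. The MSC groups overlapped, and both osteocyte groups lay above every MSC library and apart from each other. Igf1 was 4.59-fold higher in osteocytes than in MSCs under vehicle (log2 fold change 2.20 ± 0.06 SE, edgeR FDR 8.27e-14) and 2.32-fold higher under FG-4592 (1.21 ± 0.06, FDR 5.98e-11). FG-4592 lowered it in osteocytes to 0.526 of the vehicle level (-0.93 ± 0.06, FDR 2.74e-09), short of the fold cutoff. In MSCs the difference was 0.06 with a 95% interval of -0.07 to 0.18 (FDR 0.505). The log2 difference between these responses was -0.98 ± 0.08 (FDR 5.02e-07), against 24.3% of all genes past the FDR and 5.01% past both cutoffs in this contrast. It lay so near the cutoff of 1 that 9 of 20 alternative settings or omissions of a library put it past.

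Igf2, the fetal growth factor expressed from the paternal allele, was close to the detection limit in MSCs and low in osteocytes. It lies on the minus strand at chr7:142650766-142666816 (ENSMUSG00000048583.16). Vehicle-treated MSCs held 4, 3 and 3 counts and FG-4592-treated MSCs 2, 5 and 1. Vehicle-treated osteocytes held 173, 64 and 61 counts, or 2.61, 1.15 and 0.992 CPM, and FG-4592-treated osteocytes 158, 181 and 163 counts, or 2.43, 2.96 and 2.69 CPM. All 6 osteocyte libraries lay above all MSC libraries. Among the vehicle-treated osteocytes, replicate 1 stood apart from the other two and within the range of the treated libraries. Igf2 was 27.3-fold higher in osteocytes under vehicle (log2 fold change 4.77 ± 0.50 SE, edgeR FDR 7.57e-07) and 61.5-fold higher under FG-4592 (5.94 ± 0.51, FDR 5.82e-08). The latter was 6.68 (FDR 5.8e-07) without MSC FG-4592 replicate 2, which held 5 of the 8 counts of its group. The effect of FG-4592 in osteocytes was 0.76 ± 0.35 (FDR 0.0908), and without vehicle replicate 1 it was 1.31 (FDR 0.00498), past both cutoffs. Leaving out 1 of the other libraries gave no call, and the value over all omissions began at 0.49.

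The low Igf2 counts carry a limit of annotation. Of its 5723 exonic bases, 3596 are shared on the same strand with the readthrough transcript Gm49394, which held 0 to 8 counts per library. In this table, all 31 genes of at least 300 bases that lie wholly within same-strand exons of a gene with at least 1000 counts were at 0. Pairs in the shared bases may be missing from the Igf2 counts in the same way, which would then rest on its 2127 unshared bases and understate its level.

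H19, the imprinted noncoding RNA 72622 bases from Igf2 and expressed from the other parental allele, had levels far above those of Igf2. MSCs held 75, 124 and 55 counts under vehicle and 38, 62 and 76 under FG-4592. Vehicle-treated osteocytes reached 163, 104 and 141 CPM and FG-4592-treated osteocytes 891, 990 and 1190 CPM. The osteocyte groups did not overlap, and replicate 1, the high library for Igf2, was also the highest for H19 among the vehicle-treated osteocytes. H19 rose by 6.58 ± 0.24 on the log2 scale with differentiation under vehicle (edgeR FDR 1.58e-12) and by 2.91 ± 0.17 with FG-4592 in osteocytes (FDR 1.14e-09). In MSCs the FG-4592 difference was -0.63 ± 0.34 (FDR 0.164), or -0.87 (FDR 0.0493) without vehicle replicate 3, and the difference between the responses was 3.54 ± 0.38 (FDR 5.66e-06).

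Of the 3 Igf2 mRNA-binding proteins, which bind and control the translation and stability of Igf2 and other mRNAs, 2 fell with differentiation under vehicle. Igf2bp2 fell from 192 ± 6.83 to 52.2 ± 1.38 CPM (SD, n = 3; log2 fold change -1.88, edgeR FDR 2.27e-13) and Igf2bp3 from 105 ± 3.97 to 39.3 ± 2.17 CPM (-1.42, FDR 4.35e-11). With FG-4592 in osteocytes Igf2bp2 rose by 0.65 (FDR 1.19e-07) and Igf2bp3 fell by 0.95 (FDR 1.10e-08), neither past the fold cutoff. Without osteocyte FG-4592 replicate 1 the Igf2bp3 fall was -1.02 (FDR 3.23e-08). In MSCs both genes moved in the same directions with FG-4592, Igf2bp2 by 0.31 (FDR 0.000344) and Igf2bp3 by -0.26 (FDR 0.00412). The responses of the cell types differed by 0.34 for Igf2bp2 (FDR 0.00477) and -0.69 for Igf2bp3 (FDR 6.45e-05). Igf2bp1 averaged 0.551 to 0.906 CPM and passed no test, with a log2 fold change of 0.72 with differentiation under vehicle (FDR 0.127). Of the 7 genes in this list 5 were tested, and of the other two Igf2os held 0 to 2 counts per library and Mir483 none.

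**Figure D2:**
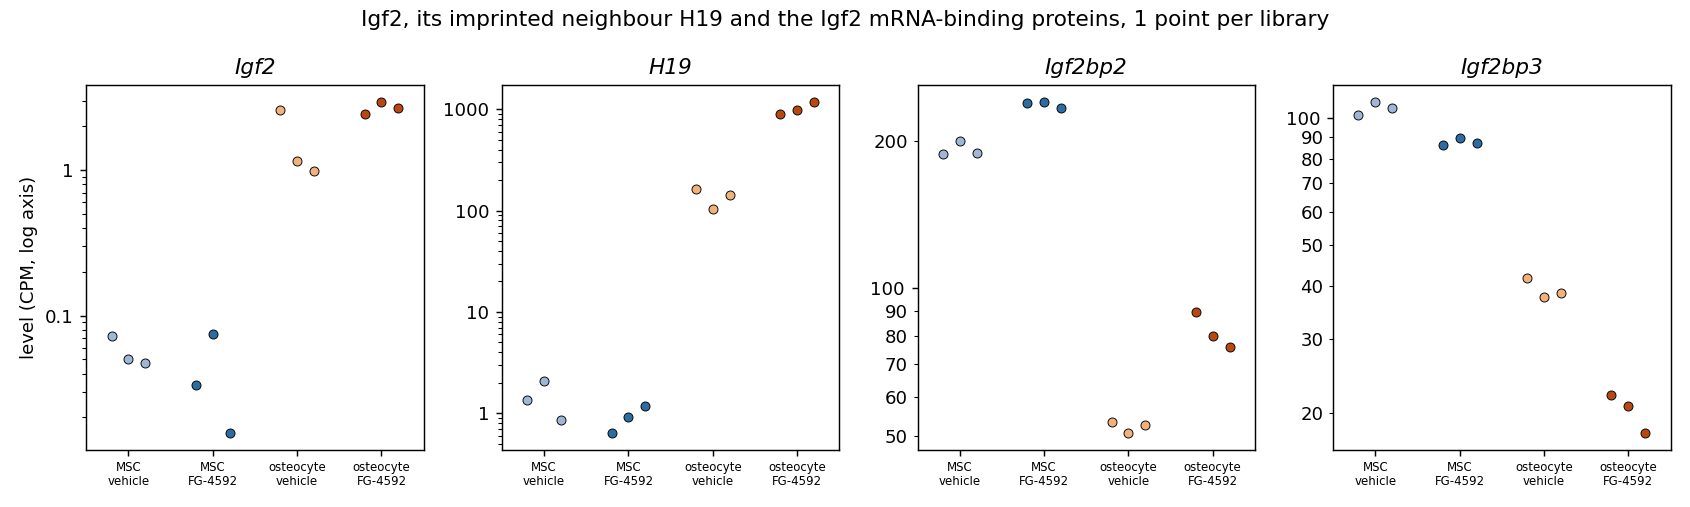
Levels in CPM on a log axis (vertical, set separately in each panel) of Igf2, H19, Igf2bp2 and Igf2bp3 in the 4 conditions, 1 point per library. Igf2 and H19 were higher in all osteocyte libraries than in all MSC libraries, H19 also separated the osteocyte treatments, and both binding proteins were lower in osteocytes.

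Igf1r, the signalling receptor, rose with FG-4592 in both cell types and more in osteocytes. The gene (ENSMUSG00000005533.10) lies on the plus strand at chr7:67952827-68233668. Vehicle-treated MSCs held 137, 137 and 142 CPM and FG-4592-treated MSCs 189, 187 and 190 CPM. Vehicle-treated osteocytes held 149, 149 and 133 CPM and FG-4592-treated osteocytes 325, 339 and 331 CPM. Treated and vehicle libraries did not overlap in either cell type, while the vehicle groups of the 2 cell types did. The rise was 1.36-fold in MSCs (log2 fold change 0.45 ± 0.05 SE, edgeR FDR 2.1e-06) and 2.31-fold in osteocytes (1.21 ± 0.05, FDR 9.56e-12), and only the second passed the fold cutoff. The responses differed by 0.76 ± 0.07 (FDR 9.45e-07). Between cell types under vehicle the difference was 0.05 with a 95% interval of -0.05 to 0.16 (FDR 0.391), and without osteocyte vehicle replicate 3 it was 0.14 (FDR 0.0178). Under FG-4592 Igf1r was 1.76-fold higher in osteocytes (0.82 ± 0.05, FDR 6.62e-10).

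Igf2r, the clearance receptor, was highest in vehicle-treated MSCs. It lies on the minus strand at chr17:12682406-12769664 (ENSMUSG00000023830.14). Vehicle-treated MSCs held 223, 242 and 246 CPM, FG-4592-treated MSCs 186, 175 and 187, vehicle-treated osteocytes 182, 184 and 173, and FG-4592-treated osteocytes 178, 155 and 170. The first group lay above the other three, which overlapped in part. Igf2r fell with FG-4592 in MSCs (log2 fold change -0.38 ± 0.06 SE, edgeR FDR 6.51e-05) and with differentiation under vehicle (-0.40 ± 0.06, FDR 2.15e-05). In osteocytes the FG-4592 difference was -0.10 with a 95% interval of -0.22 to 0.02 (FDR 0.183). Across the alternative fits its FDR was as low as 0.0120. The difference between the responses was 0.28 ± 0.08 (FDR 0.0197), but it did not pass without MSC vehicle replicates 2 or 3 (FDR 0.115 and 0.127), without MSC FG-4592 replicate 2 (0.0553), without osteocyte vehicle replicates 1, 2 or 3 (0.0571, 0.0529 and 0.116) or without osteocyte FG-4592 replicate 1 (0.0594). Under FG-4592 the cell types differed by -0.12 (FDR 0.0784), and by -0.17 without osteocyte FG-4592 replicate 1 (FDR 0.0327). Airn, the noncoding RNA that starts within Igf2r on the opposite strand and is known to silence its paternal allele, fell with FG-4592 in MSCs from 6.57 ± 0.741 to 2.46 ± 0.665 CPM (-1.42 ± 0.19, FDR 2.14e-05). Airn also fell with FG-4592 in osteocytes (-0.87, FDR 0.00181) and with differentiation under vehicle (-0.85, FDR 0.00134), short of the fold cutoff. The difference between its responses did not pass (0.55, FDR 0.171), but did without MSC FG-4592 replicate 3 (0.79, FDR 0.0356).

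**Figure D3:**
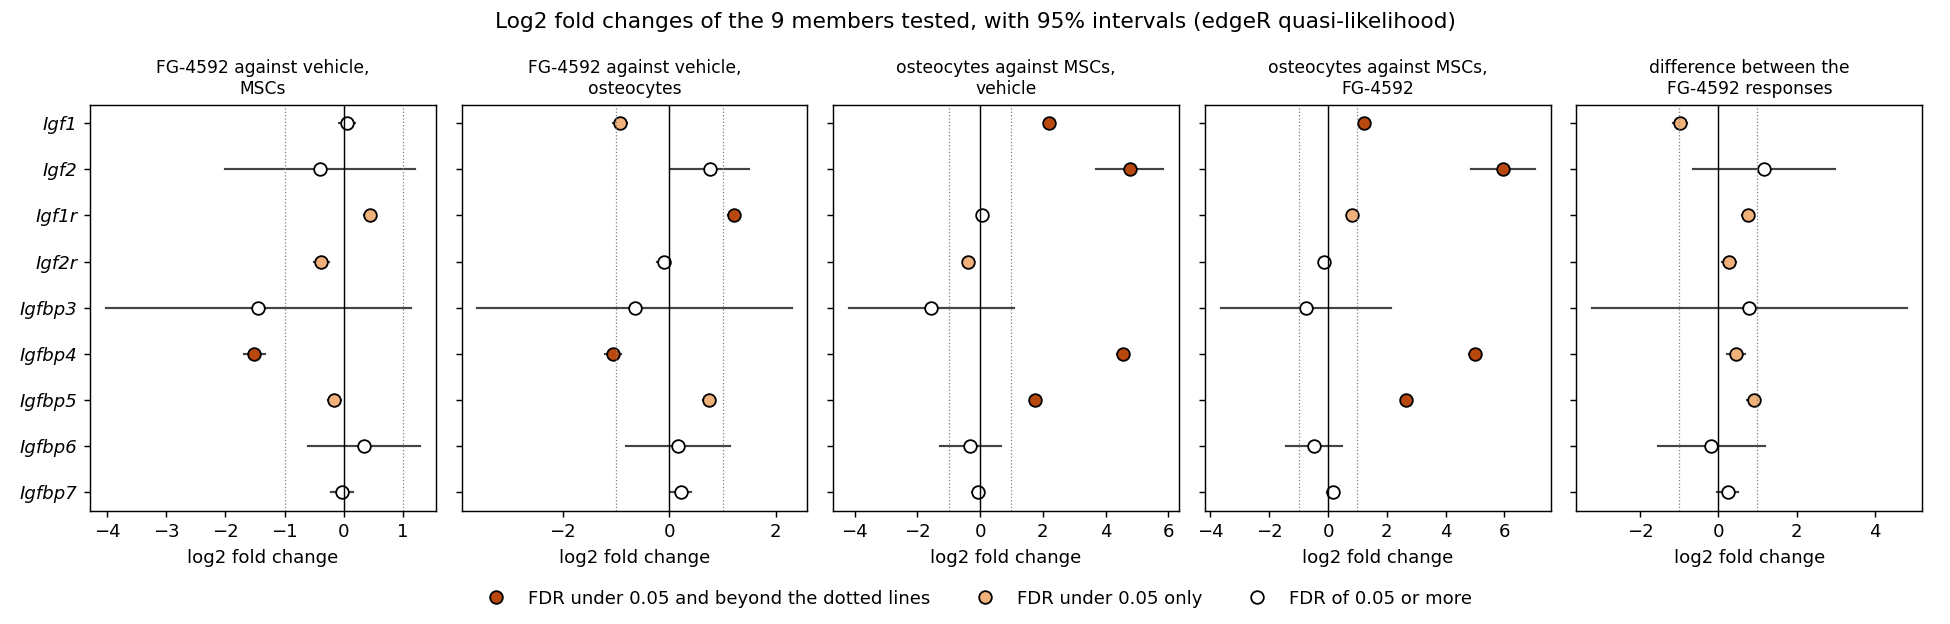
Log2 fold change (horizontal axis, set separately in each panel) of the 9 genes tested in the 5 contrasts, with 95% intervals from edgeR. Filled dark points passed both cutoffs and light points the FDR alone, dotted lines mark a log2 fold change of 1 in either direction, and the broad intervals belong to Igf2, Igfbp3 and Igfbp6, the genes with low counts.

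Igfbp5 was the most abundant binding-protein transcript per length in osteocytes and stood near Igfbp7 in MSCs. It rose from MSCs to osteocytes and on to FG-4592-treated osteocytes. It lies on the minus strand at chr1:72857932-72874884 (ENSMUSG00000026185.8), 5457 bases from Igfbp2 on the plus strand at chr1:72824503-72852474. Vehicle-treated MSCs held 973, 993 and 937 CPM and FG-4592-treated MSCs 836, 883 and 887 CPM. Vehicle-treated osteocytes held 3172, 3422 and 3218 CPM and FG-4592-treated osteocytes 5460, 5093 and 5955 CPM. No pair of these groups overlapped. Differentiation raised Igfbp5 by 3.38-fold under vehicle (log2 fold change 1.76 ± 0.05 SE, edgeR FDR 2.57e-13) and 6.33-fold under FG-4592 (2.66 ± 0.06, FDR 1.42e-15). FG-4592 raised it by 1.68-fold in osteocytes (0.75 ± 0.05, FDR 9.1e-09), short of the fold cutoff. In MSCs it was -0.16 ± 0.05 (FDR 0.0296), a fall that did not pass without vehicle replicates 1, 2 or 3 (FDR 0.154, 0.217 and 0.0832) or without FG-4592 replicates 1 or 2 (0.112 and 0.0503). Across the alternative fits the FDR of this fall was as high as 0.0564. The responses differed by 0.91 ± 0.08 (FDR 3.42e-07).

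Igfbp4, a binding protein known mainly as an inhibitor of IGF action, had the largest range of the well-counted members on the log2 scale. It fell with FG-4592 in both cell types. It lies on the plus strand at chr11:99041244-99054392 (ENSMUSG00000017493.12). Vehicle-treated MSCs held 23.4, 25.5 and 22.6 CPM and FG-4592-treated MSCs 7.60, 9.21 and 8.31 CPM. Vehicle-treated osteocytes held 502, 561 and 606 CPM and FG-4592-treated osteocytes 275, 262 and 263 CPM. No pair of groups overlapped. Igfbp4 was 23.3-fold higher in osteocytes under vehicle (log2 fold change 4.54 ± 0.08 SE, edgeR FDR 4.93e-16) and 31.8-fold higher under FG-4592 (4.99 ± 0.09, FDR 1.86e-16). FG-4592 brought it to 0.352 of the vehicle level in MSCs (-1.51 ± 0.08, FDR 3.58e-10) and 0.479 in osteocytes (-1.06 ± 0.07, FDR 4.16e-09), the only member called in both. The fall was smaller in osteocytes by 0.45 ± 0.11 (FDR 0.00569).

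Igfbp7 was abundant in all conditions and passed the FDR in no contrast of the fit to the 12 libraries. It lies on the minus strand at chr5:77349240-77408041 (ENSMUSG00000036256.13) and shares 85 of its 1209 exonic bases with Polr2b on the opposite strand. MSC libraries held 163, 201 and 199 CPM under vehicle and 179, 185 and 187 CPM under FG-4592, and osteocyte libraries 168, 179 and 186 CPM under vehicle and 176, 231 and 210 CPM under FG-4592. The 4 groups overlapped, with log2 differences from -0.08 to 0.25. The FG-4592 difference in osteocytes was 0.21 with a 95% interval of 0.02 to 0.40 (edgeR FDR 0.0657). Without FG-4592 replicate 1 it was 0.31 (FDR 0.00622), the difference between cell types under FG-4592 was 0.26 (FDR 0.0130) and that between the responses was 0.35 (FDR 0.0342). With no filter on low counts these 3 differences also passed, at 0.22 (FDR 0.00117), 0.16 (FDR 0.0258) and 0.26 (FDR 0.0148), and with a replicate block the first did (FDR 0.0183), each short of the fold cutoff.

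The other 3 binding proteins were near the limit of these libraries, where a count of 0 allows up to 3 counts, or 0.0447 to 0.0545 CPM, by counting error alone. Igfbp6 (chr15:102144362-102149511), which prefers IGF2 as a ligand, held 14 to 48 counts in every library and passed no contrast. Igfbp3 (chr11:7206086-7213923), the main carrier of circulating IGFs, held 25, 11 and 9 counts in MSCs under vehicle and 3, 8 and 7 under FG-4592, with 0, 15 and 0 in osteocytes under vehicle and 0, 0 and 10 under FG-4592. The MSC groups did not overlap, but the difference of -1.45 ± 1.21 did not pass (edgeR FDR 0.387), and without vehicle replicate 1 it was -0.76 (FDR 0.732). Its osteocyte counts came from a single library in each group, and without vehicle replicate 2, which leaves vehicle-treated osteocytes at 0 counts, the difference between cell types under vehicle passed (FDR 0.0139). Igfbp2 held 0, 0 and 1 counts in MSCs under vehicle and 0, 3 and 1 under FG-4592, with 5, 11 and 4 in osteocytes under vehicle and 0, 0 and 79 under FG-4592. All 79 counts of the last group were in replicate 3. Between cell types under vehicle the ratio of its summed counts, 20 against 1, was 19.5 with a 95% interval of 3.11 to 807 that covers counting error only.

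The mix of binding-protein transcripts differed between the conditions. Summed per length over the 6 genes, the level in MSCs was 322 ± 18.1 CPM per kilobase under vehicle and 299 ± 8.10 under FG-4592, and in osteocytes 818 ± 33.2 under vehicle and 1147 ± 68.8 under FG-4592 (SD, n = 3). Igfbp7 made up 48.1 ± 3.13% of the sum in vehicle-treated MSCs, 50.8 ± 0.317% with FG-4592, 18.0 ± 0.544% in vehicle-treated osteocytes and 14.9 ± 2.27% with FG-4592. Igfbp5 made up 50.1 ± 3.07%, 48.4 ± 0.266%, 66.6 ± 1.58% and 79.8 ± 2.29% in the same order. Igfbp4 made up 1.68 ± 0.0994%, 0.634 ± 0.0494%, 15.4 ± 1.06% and 5.27 ± 0.373%. FG-4592-treated osteocytes had a higher sum, a higher Igfbp5 share and a lower Igfbp4 share than vehicle-treated ones in all 3 libraries, and each of these differences had a two-sided exact permutation p of 0.1, the smallest that 3 against 3 libraries can give. In MSCs the Igfbp4 share also had an exact permutation p of 0.1, the sum 0.2 and the Igfbp5 share 0.5. Without length scaling Igfbp5 takes more of the sum, 82.0% in vehicle-treated MSCs and 92.1% in FG-4592-treated osteocytes, and its vehicle shares in the 2 cell types are then alike, 82.0% and 81.7%.

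**Figure D4:**
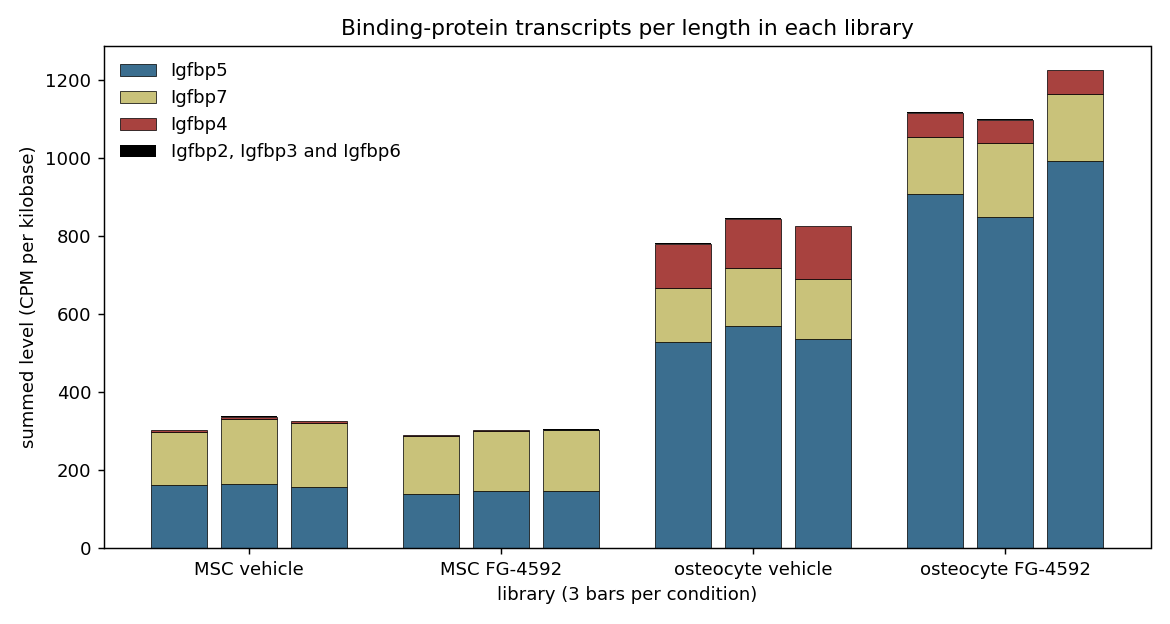
Summed level of the 6 binding-protein genes in CPM per kilobase (vertical axis, from 0) in each of the 12 libraries, 3 bars per condition, divided by gene. Igfbp5 and Igfbp7 fill the MSC bars in nearly equal parts, Igfbp5 fills most of the osteocyte bars, and the Igfbp4 section is thinner in FG-4592-treated than in vehicle-treated osteocytes.

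A list of 12 further genes held binding-protein proteases and their inhibitors, other secreted proteins of the IGF complexes or related to the binding proteins, and cell-surface receptors of the insulin receptor family or for binding proteins. Of these 9 were tested, and 6 were called higher in osteocytes under vehicle and 0 lower, where 15.9% of all genes were called in either direction. The 9 had a median log2 fold change of 1.07 beside -0.0064 over all genes. Pappa, the protease that cleaves IGFBP4 and IGFBP5, rose from 9.08 ± 0.715 to 30.6 ± 2.27 CPM (SD, n = 3; log2 fold change 1.75, edgeR FDR 4e-10). With FG-4592 in osteocytes it fell to 14.3 ± 0.860 CPM (-1.10 ± 0.10, FDR 1.16e-07). Pappa also fell with FG-4592 in MSCs (-0.84, FDR 6.84e-06), short of the fold cutoff. Its 2 responses did not differ past the FDR (-0.25, FDR 0.216). Htra1, a secreted serine protease also known to cleave binding proteins, rose from 47.9 ± 4.59 to 145 ± 11.9 CPM (FDR 3.28e-11) and fell with FG-4592 to 68.5 ± 3.09 CPM (-1.08 ± 0.07, FDR 4.56e-09). In MSCs Htra1 also fell with FG-4592 (-0.65, FDR 3.53e-06), short of the fold cutoff. The difference between its responses was -0.44 (FDR 0.00532). Pappa and Htra1 were the 2 genes of the list called with FG-4592 in osteocytes, where 10.5% of all genes were. Stc2, an inhibitor of PAPPA, rose from 0.176 ± 0.0790 to 1.75 ± 0.160 CPM (3.28 ± 0.35, FDR 1.01e-06), and Pappa2, the related protease, by 1.07 ± 0.31 (FDR 0.0098). Under FG-4592 Pappa2 was higher in osteocytes by 1.38 (FDR 0.0016), and without osteocyte FG-4592 replicate 2 by 0.67 (FDR 0.00529), short of the fold cutoff. Igfals, which stabilises IGF and IGFBP3 or IGFBP5 in a ternary complex, rose by 2.28 ± 0.51 (FDR 0.00147) and fell by 2.66 ± 0.67 with FG-4592 in MSCs (FDR 0.00461), the 1 gene of the list called there, where 9.29% of all genes were. MSCs held 26, 38 and 44 Igfals counts under vehicle and 1, 17 and 0 under FG-4592, so that nearly all treated counts came from replicate 2. Leaving each library out of the fit in turn, an alternative chosen after seeing the data, gave a fall of -5.89 (FDR 2.97e-05) without that replicate, and the responses of the cell types then differed past both cutoffs (4.95, FDR 0.00129), which they did not in the full fit (1.72, FDR 0.153). Under FG-4592 Igfals was higher in osteocytes by 4.00 (FDR 5.62e-05), and without MSC replicate 2 by 7.23 (FDR 7.89e-07). The endocytic receptor Lrp1 rose by 1.05 ± 0.07 (FDR 3.04e-09), and without osteocyte vehicle replicate 2 by just under the fold cutoff (0.999). Igfbp1, a binding protein made mainly by liver and known as a HIF target, had 0 counts in all 12 libraries, so a response to FG-4592 was not detectable at this depth.

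Of 37 genes of receptor signalling 36 were tested, with 3 called higher and 0 lower in osteocytes under vehicle, where 15.9% of all genes were called in either direction. Irs2, an adaptor that couples the receptor to phosphoinositide 3-kinase (PI3K), rose from 5.01 ± 0.374 to 15.9 ± 1.90 CPM with differentiation (log2 fold change 1.66, edgeR FDR 2e-09) and on to 32.2 ± 2.03 CPM with FG-4592 in osteocytes (1.02 ± 0.10, FDR 3.73e-07). The second rise fell short of the fold cutoff without osteocyte vehicle replicate 1 (0.90) or FG-4592 replicate 3 (0.98). Pik3r1 and Pik3r3 encode regulatory subunits of PI3K, and both rose with differentiation, by 1.45 ± 0.04 (FDR 1.88e-13) and 1.81 ± 0.07 (FDR 4.25e-12). Pik3r3 was the 1 gene of the list called lower with FG-4592 in each cell type. MSCs held 93.8, 88.9 and 84.8 CPM under vehicle and 26.5, 27.9 and 30.1 under FG-4592, and osteocytes 335, 306 and 296 under vehicle and 59.6, 70.8 and 63.0 under FG-4592. The groups did not overlap, and the falls were -1.66 ± 0.07 (FDR 2.71e-11) and -2.28 ± 0.07 (FDR 3.53e-13).

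With FG-4592, 2 of these 36 genes were called higher and 1 lower in MSCs, beside 9.29% of all genes in either direction, and 5 higher and 1 lower in osteocytes, beside 10.5%. The list's median was 0.11 beside -0.045 over all genes in MSCs and 0.26 beside 0.0015 in osteocytes. Eif4ebp1, a repressor of translation that mTORC1 inactivates, rose by 1.45 ± 0.13 in MSCs (edgeR FDR 2.16e-07) and 1.33 ± 0.13 in osteocytes (FDR 4.7e-07). Map2k1, the MAP kinase kinase MEK1, rose by 1.26 ± 0.05 (FDR 2.23e-12) and 1.02 ± 0.04 (FDR 2.15e-11), the second being 0.99 without osteocyte vehicle replicate 1 or FG-4592 replicate 2. Foxo3, a transcription factor that AKT keeps out of the nucleus, rose by 1.11 ± 0.06 in osteocytes (FDR 9.93e-11) and by 0.77 ± 0.05 in MSCs (FDR 1.11e-08), the latter short of the fold cutoff. Ddit4, a HIF-induced inhibitor of mTORC1, rose by 1.47 ± 0.13 in osteocytes (FDR 1.15e-07) and 0.45 ± 0.13 in MSCs (FDR 0.00927; 0.0508 without FG-4592 replicate 1), and it was the 1 signalling gene of 36 whose responses differed past both cutoffs (1.02 ± 0.18, FDR 0.000583), beside 5.01% of all genes. When 1 library was left out, that difference fell to as little as 0.85 and was under the fold cutoff in 6 of 12 omissions, those of MSC vehicle replicates 1 and 2, MSC FG-4592 replicate 3, osteocyte vehicle replicate 1 and osteocyte FG-4592 replicates 2 and 3.

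For 5 of the members, the protein-coding genes with the most similar profile were found as the smallest root mean square difference of centred log2 CPM over the 12 libraries, among 11246 candidates. Igf1 was followed most closely by Megf10 (0.105, where Igf1 itself varies by 0.916), which averaged 48.3, 55.3, 234 and 112 CPM in vehicle- and FG-4592-treated MSCs and then osteocytes, and next by Hsph1 and Slc40a1. Igf1r, which varies by 0.506, was closest to Atxn7l1 (0.0855), Ddr1 and Cnnm4. Igfbp4, which varies by 2.47, was closest to Kank4 (0.172), Vcam1 and Fmo1, and Vcam1 averaged 25.1, 7.20, 417 and 254 CPM. Igfbp5, which varies by 1.14, was closest to Csmd1 (0.168), Ntn1 and Fhl1. Igf2, which varies by 2.39 and has few counts in MSCs, was closest to Lbp (0.443). These are descriptions over 4 conditions, in which few patterns are possible.

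Promoter sequences are shown for Igf1r, which rose with FG-4592 in both cell types, and for Igfbp4 and Igfbp5, which moved in opposite directions in osteocytes. Each is the 250 bases before the RefSeq start on GRCm38.p6, read 5′ to 3′ on the gene's strand, with capitals for matches to the core hypoxia response motifs ACGTG and GCGTG on either strand (CACGT and CACGC when read on the other). Matches may overlap. The windows are chr7:67952007-67952256 for Igf1r on the plus strand, chr11:99040994-99041243 for Igfbp4 on the plus strand and chr1:72874866-72875115 for Igfbp5 on the minus strand.
Igf1r: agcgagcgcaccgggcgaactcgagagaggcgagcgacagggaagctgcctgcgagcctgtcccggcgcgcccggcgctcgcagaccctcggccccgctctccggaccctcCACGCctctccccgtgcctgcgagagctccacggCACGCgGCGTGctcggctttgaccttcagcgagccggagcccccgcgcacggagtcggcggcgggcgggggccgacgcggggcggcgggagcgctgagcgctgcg
Igfbp4: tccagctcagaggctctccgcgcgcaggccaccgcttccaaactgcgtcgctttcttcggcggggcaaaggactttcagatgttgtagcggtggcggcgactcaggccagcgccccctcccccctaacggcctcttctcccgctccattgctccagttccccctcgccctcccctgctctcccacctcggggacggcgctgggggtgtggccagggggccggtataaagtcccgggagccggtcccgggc
Igfbp5: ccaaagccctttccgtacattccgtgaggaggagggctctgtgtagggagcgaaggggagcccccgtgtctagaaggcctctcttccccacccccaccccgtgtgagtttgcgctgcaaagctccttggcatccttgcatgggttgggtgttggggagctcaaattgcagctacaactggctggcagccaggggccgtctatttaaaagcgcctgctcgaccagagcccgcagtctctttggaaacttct
Igf1r held 3 matches, between 99 and 139 bases before the start, and the Igfbp4 and Igfbp5 windows held none. The RefSeq start of Igf1r lies upstream of the gene as counted, which begins at chr7:67952827, so this window does not adjoin it. All 10 members had an entry in the table, with 14 windows in all, and 7 windows, of 7 members, held a match, as did 38.6% of the 32851 windows of all genes. The matching windows of Igf1 and Igf2, 1 each, lie wholly in annotated exons of those genes and are not printed, and 19 of the 250 bases of the printed Igfbp5 window lie in an annotated exon of that gene. Igf2r, which fell with FG-4592 in MSCs, had 6 matches, more than Igf1r. A match describes letters in a window and not the binding of a factor.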

How the data were processed

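RNAseq was done on 12 libraries, 3 in each of 4 conditions. Per the methods, the authors aligned paired reads to mm10 (STAR 2.7.2a), and featureCounts (Subread 1.6.2) assigned those with a unique position to the genes of Gencode M22. The authors deposited 1 raw count per gene and library, without normalization. The methods state that pairs were counted for every gene they overlap and name no strand option, but in the table all 31 genes lying wholly in same-strand exons of a gene with at least 1000 counts were at 0, and in 43 of 509 opposite-strand pairs the outer gene had fewer counts than the gene inside it, which such counting would not give. Reads in shared same-strand exons may thus be missing.

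Genes were kept if 3 or more libraries exceeded 10 counts (16484 of 56350) and fitted over all 12 libraries in edgeR 4.0.16 (R 4.3.3) with TMM factors, and the two-sided quasi-likelihood test was adjusted by Benjamini-Hochberg over all of them. Genes were called at FDR under 0.05 and absolute log2 fold change above 1. CPM used tested-gene totals and TMM factors. Tested on simulated data with 200 changed genes, the fit recovered 200 for FG-4592 in osteocytes (4 false calls among 15901 genes). For the difference between responses it also recovered 200 (3 false calls among 15879). How recovery depends on the size of a change or on low counts was not tested. Groups came from the labels, which name no batch. Alternatives were DESeq2 1.42.0, the likelihood ratio test, scaling by RLE, by upper quartiles or by library size alone, no filter, filterByExpr, a fit to the compared libraries only, a replicate block, no length scaling, and each library left out in turn. Shares were compared by exact permutation.

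All 10 members are described. Genes of the hand-written lists (binding-protein proteases and other IGF partners, imprinted neighbours and Igf2 mRNA-binding proteins, receptor signalling, and markers of osteoblasts and osteocytes, mesenchymal cells, proliferation, adipocytes, cartilage, blood and vessels, and HIF targets) are named where past both cutoffs in at least 1 contrast, or as examples of a count, and 1 gene of these lists is not reported here. Likeness used the 3 nearest protein-coding genes. The members and lists were chosen with earlier results of these data known, and are no independent evidence. Counting intervals and floors cover counting error only.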

Additional observations from a re-analysis of the deposited data

Results flagged for a closer look

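The response to FG-4592 differed between osteocytes and MSCs, by the interaction test of edgeR at an FDR under 0.05, for 5 of the 9 members tested, where 24.3% of all genes tested passed. The log2 difference, osteocytes minus MSCs, was -0.98 for Igf1 (FDR 5.02e-07), which was lower with FG-4592 in osteocytes in 3 of 3 libraries and overlapped with vehicle in MSCs. It was 0.76 for Igf1r (FDR 9.45e-07), which was higher in all treated libraries of both cell types, and 0.91 for Igfbp5 (FDR 3.42e-07), higher in osteocytes and lower in MSCs. For Igfbp4 it was 0.45 (FDR 0.00569), with lower levels in all treated libraries of both. For Igf2r it was 0.28 (FDR 0.0197), the value that rests most on single libraries, since its FDR reached 0.127 when MSC vehicle replicate 3 was left out. None of the 5 passed the fold cutoff of 1 in the fit over all 12 libraries.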

How the results depend on the processing

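Of 716 log2 fold changes recomputed under an alternative, 687 kept their side of the FDR, 16 gained a pass and 13 lost it, and the 11 that changed sign had not passed in the full fit. The number of members called stayed within 1.5 times that of the full fit in 71 of 80 recomputations, and the others concern the difference between the FG-4592 responses, where 0 members were called in the full fit and 1, Igf1, with RLE factors and with DESeq2, and between 0 and 1 when a library was left out. With library size alone, Igf1 also passed both cutoffs for FG-4592 in osteocytes (-1.03). Without the filter, 5 members rather than 4 were called between the cell types under either treatment, the fifth being Igfbp2. Under FG-4592 that call rests on 1 library, since all 79 Igfbp2 counts of the treated osteocytes were in replicate 3. Without length scaling, the shares of summed binding-protein CPM in vehicle- and FG-4592-treated MSCs and then osteocytes were 82.0%, 81.8%, 81.7% and 92.1% for Igfbp5, 15.9%, 17.3%, 4.44% and 3.46% for Igfbp7, and 2.02%, 0.788%, 13.9% and 4.47% for Igfbp4. The replicate numbers did not pair the samples: correlations of same-numbered libraries over 18 pairs ran from -0.13 to 0.054. With the replicate block the members called stayed at 1, 2, 4, 4 and 0 in the 5 contrasts, Igfbp7 passed the FDR for FG-4592 in osteocytes (0.0183), and the calls over all genes for FG-4592 in osteocytes went from 1732 to 1678. Depth limits Igf2 in MSCs, Igfbp2, Igfbp3 and Igfbp6, with at most 79 counts per library.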
